A study of Mus musculus with 4 samples.

Results

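Differentiated epithelial cells of the mouse colon were compared with intestinal stem cells (ISCs) on the day of birth, across 200-bp bins of the autosomes and across the promoter, body and last exon of protein-coding genes. A bin was kept when it held 2 or more CpGs and 20 or more methylation calls in both libraries, summed over the DNA strands. That left 3633280 of 4938585 bins (73.6%), with 20936 of 21410 promoters, 17627 of 17984 bodies and 16598 of 18564 last exons. The cells were sorted from the colon of offspring of Lgr5-EGFP-CreER mice crossed with wild-type C57 mice: ISCs as Lgr5-EGFP+ cells and differentiated cells as Lgr5-EGFP-, EpCAM+ cells. Both groups therefore share the reporter cross and carry no other labelled allele or treatment. Postnatal day 0 (P0) DNA was pooled from several litters, and whole-genome bisulfite sequencing gave 1 library per cell type. A further library per cell type came from pooled offspring at postnatal day 21 (P21). It served here as the only separate measurement of the cell type contrast, but at another age. Where a P0 difference is absent at P21, error of the P0 libraries and a difference particular to birth cannot be told apart. The Lgr5 reporter is driven from the Lgr5 locus and its expression in the gut is mosaic, so the EGFP-negative gate can hold stem cells without visible EGFP. Offspring that carried the reporter were taken at P21, but whether P0 mice without it entered the differentiated pool is not given in the sources used here. All stem cells of such mice would fall in the EGFP-negative gate. With 1 library per group, every test below compares 2 libraries and not 2 conditions, and a change in the mix of cells cannot be told apart from a change within a cell type.

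DNA methylation in mammals sits mainly at CpG dinucleotides, where the cytosines of both strands are normally modified together and the mark is copied after replication by Dnmt1. Most of the genome is highly methylated, CpG-rich promoters are mostly free of the mark, and low or intermediate levels elsewhere often lie at regulatory elements or at imprinted regions, where the alleles of the mother and the father differ. In the colon, Lgr5+ stem cells at the crypt base give rise to absorptive, goblet, enteroendocrine and tuft cells.

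The sequences of 5 regions with a called difference at P0 are shown because the results below turn on them. In an intron of Osbpl10 and the promoter of Plagl1 the difference was seen again at P21. In an intron of Peg10 it was smaller at P21 over the adjacent called bins, and the opposite in the bin shown. In the promoter of Esr1 and the body of Hoxa2 it was not seen again. Each sequence is the 200-bp bin with the largest difference in its region, on the plus strand of mm9, and capitals mark the CpGs. They lie at chr9:115059601-115059800 (Osbpl10), chr10:12810201-12810400 (Plagl1), chr6:4699001-4699200 (Peg10), chr10:5733801-5734000 (Esr1) and chr6:52114201-52114400 (Hoxa2).
Osbpl10 intron 2: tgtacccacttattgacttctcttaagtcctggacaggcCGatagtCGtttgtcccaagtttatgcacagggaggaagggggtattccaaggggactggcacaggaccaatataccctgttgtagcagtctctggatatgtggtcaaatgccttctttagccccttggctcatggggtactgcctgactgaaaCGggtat
Plagl1 promoter: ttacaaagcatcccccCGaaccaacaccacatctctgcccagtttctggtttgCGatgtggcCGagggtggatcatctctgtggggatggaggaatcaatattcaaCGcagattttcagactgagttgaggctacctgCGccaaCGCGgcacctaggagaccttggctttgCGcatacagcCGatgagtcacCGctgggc
Peg10 intron 1: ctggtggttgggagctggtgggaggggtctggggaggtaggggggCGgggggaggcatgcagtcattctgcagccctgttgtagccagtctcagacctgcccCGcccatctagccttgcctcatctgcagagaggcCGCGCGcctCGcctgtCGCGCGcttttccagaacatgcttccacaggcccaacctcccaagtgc
Esr1 promoter: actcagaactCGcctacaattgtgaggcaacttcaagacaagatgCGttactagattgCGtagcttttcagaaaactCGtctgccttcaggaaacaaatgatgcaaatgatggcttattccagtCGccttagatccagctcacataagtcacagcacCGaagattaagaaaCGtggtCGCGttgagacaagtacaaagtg
Hoxa2 body: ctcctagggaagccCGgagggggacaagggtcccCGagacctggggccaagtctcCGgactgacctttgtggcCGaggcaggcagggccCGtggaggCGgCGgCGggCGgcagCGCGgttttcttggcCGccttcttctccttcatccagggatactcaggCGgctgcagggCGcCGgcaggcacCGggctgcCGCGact

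The files held 1031520845 calls for ISCs and 1188114423 for differentiated cells at P0, of which 63.7% and 50.5% sat at 1930 and 3111 positions with more than 1000 calls each. The median covered CpG had 16 and 25 calls, and the median tested bin 61 and 92. The differentiated library was thus the deeper by both medians, while it covered 93.5% of the autosomal CpGs against 96.7% in ISCs.

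The 2 methylomes at birth were close to each other. Over all bins ISCs averaged 76.6% and differentiated cells 76.5%, a difference of -0.115 points (differentiated minus ISC, here and throughout). Over the 19 autosomes that difference lay between -0.162 and -0.059 points, negative on each. Its size and sign moved with how the calls were combined and with which bins were used. With every call weighted equally it was -2.78 points. The part of the very deep positions described above, or of differences in which CpGs were covered, in that value was not tested. Over single CpGs with 10 or more calls it was -0.085, and in bins with 40 or more calls -0.154. On the plus strand alone it was +0.037 and on the minus strand alone +0.022, each over bins with 10 or more calls on that strand in both libraries. Within 5 points of each other were 53.4% of bins, and within 15 points 91.4%.

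**Figure D1:**
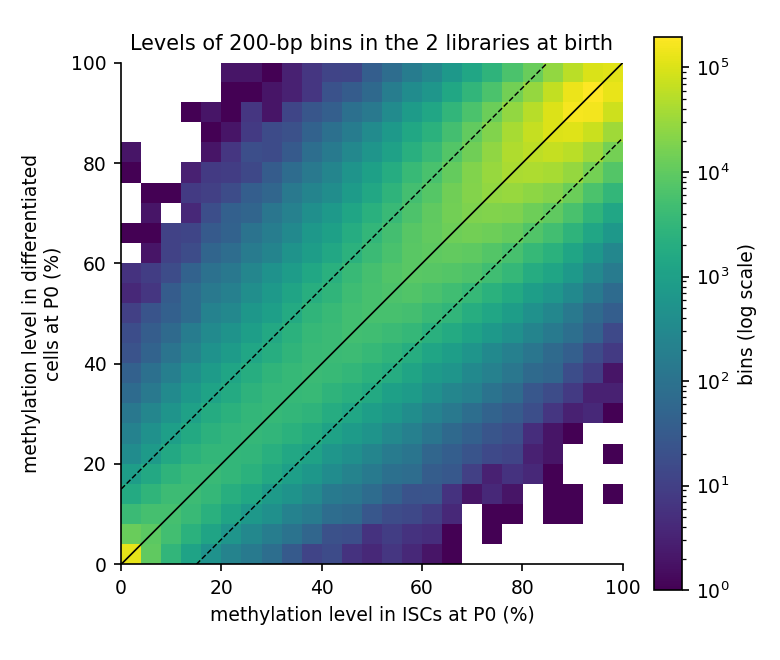
Methylation level of 3633280 bins of 200 bp in ISCs (x axis, %) and differentiated cells (y axis, %) at P0, with colour for the number of bins on a log scale; the solid line marks equal levels and the dashed lines a difference of 15 points. Most bins lie in the highly methylated corner and at the unmethylated corner, on or near the line of equal levels.

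A bin was called when the level differed by more than 15 points and Fisher's exact test on the calls gave a Benjamini-Hochberg adjusted p below 0.05. This held for 21444 bins, 0.59% of those tested, of which 12141 were higher in differentiated cells (gains, 0.334% of tested bins) and 9303 were lower (losses, 0.256%). The count was 7246 when calls were thinned to the lower library and 239 when all calls were divided by 2, and whether duplicate reads had been removed is not given in the sources. The median gain was 25.7 points, with quartiles at 20.4 and 33.3, and the quartiles of the losses lay at -32.5 and -19.8 points. Gains went from a median of 53.3% in ISCs to 83.9% in differentiated cells, and losses from 85.3% to 55.1%, and in 57.1% of called bins the higher of both levels was over 80%. Such levels were common among all tested bins, whose median was 85.7% in ISCs and 85.5% in differentiated cells. Just inside the limit, 957 called bins differed by less than 16 points, and outside it 5632 bins passed the test with 15 points or less.

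Called bins lay in every class of region. Over all calls, gains were fewer in CpG islands and 5′ regions than their share of tested bins. Among gains with the strand agreement described below, both shares were close to those of tested bins. CpG islands, defined as stretches rich in CpGs, held 3.93% of tested bins, 2.55% of gains and 3.78% of losses. Bins within 2000 bp of an island made up 6.25%, 6.08% and 7.56%. The 5′ regions of genes held 2.56% of tested bins, 1.68% of gains and 2.53% of losses, and last exons 1.85%, 1.94% and 1.97%. Inside islands 0.463% of bins were called, and outside islands and their shores 0.593%. The share of gains among calls was 46.7% (95% Clopper-Pearson interval 42.9 to 50.6) in islands, against 57.4% (56.7 to 58.1) outside islands and shores. Calls were most frequent where the level was intermediate: taking the P21 libraries for the level, 1.15% of bins between 20% and 80% were called, against 0.331% of those over 80%. They also followed depth, from 0.367% of bins with 20 to 39 calls in the lower library to 0.817% with 80 to under 160 and 0.689% with more. These intervals cover counting error only.

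The strands gave a first check, because each strand of a CpG is covered by its own reads. Of the called bins, 9992 had 10 or more calls per strand in both libraries, and in 4008 of these (40.1%) both strands differed in the same direction with Fisher's exact p below 0.05, 2480 as gains and 1528 as losses. That is 0.268% of the bins with enough calls per strand, and because both strands entered the call the share is a description. Islands held 3.95% of the gains with strand agreement and 6.81% of the losses, beside 3.93% of tested bins. The 5′ regions held 3.73% of those losses, beside 2.56% of tested bins. Whether bins with enough calls per strand lie more often in islands was not tested. When the call was instead made on a single strand, the other strand was a separate measurement. Among 760644 bins with 20 or more calls per strand in both libraries, 3762 were gains on the plus strand alone, with a mean of 30.4 points. On the minus strand the same bins had a mean of 2.34 points, and 55.6% (54.0 to 57.2) were higher, against 47.9% of all these bins. The 2428 losses of the plus strand, with a mean of -30.1 points, had a mean of -0.778 points on the minus strand, and 53.0% (51.0 to 55.0) were lower, against 48.4% of all. Calls made on the minus strand behaved alike, with means of 2.501 and -0.994 points on the plus strand. Across the same bins the differences of the strands had a Pearson correlation of 0.025, given as a description since bins share libraries and local base composition. The change of ISCs from P0 to P21, measured in the same way over 784167 bins, had a correlation of 0.295 between strands. Most of a called difference on a strand was therefore absent from the other strand of the same libraries.

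The P21 libraries gave the other check, with the limit that they differ in age as well. Of the gains, 11669 had 20 or more calls in all 4 libraries. Their mean level was 49.0% in P0 ISCs and 76.3% in P0 differentiated cells, and 64.4% and 64.5% at P21. The 8908 losses had means of 77.8% and 51.2% at P0, and 62.6% and 61.1% at P21. In both sets the P21 libraries stood between the P0 libraries and close to each other. Of the gains, 49.8% (48.9 to 50.8) were higher in differentiated cells at P21, against 46.2% of all bins, with a mean P21 difference of 0.129 points against -0.539 over all bins. Of the losses, 55.0% (53.9 to 56.0) were lower at P21, against 52.4% of all bins, with a mean of -1.53 points. Gains with strand agreement gave 48.7% (46.7 to 50.7) and losses 54.0% (51.5 to 56.6).

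**Figure D2:**
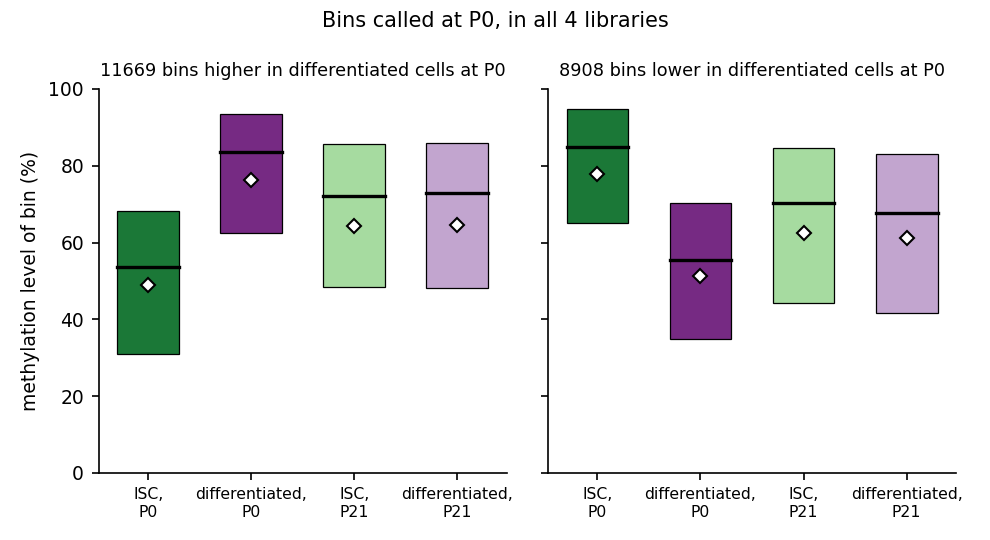
Methylation level (y axis, %) of 11669 bins higher and 8908 bins lower in differentiated cells at P0, in each of the 4 libraries; boxes span the quartiles over bins, the line is the median and the diamond the mean. The P0 boxes differ because the bins were chosen for it, with means of 49.0% and 76.3% for gains, while the P21 boxes are nearly level, with means of 64.4% and 64.5%.

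Calling the P21 libraries by the same rule gave 7550 bins, 0.221% of 3418450, of which 39.6% were gains. Of the P0 gains 202 were also called at P21, 92 as gains and 110 as losses. Of the P0 losses 154 were called again, 100 as losses and 54 as gains. The share in the same direction was 45.5% (38.5 to 52.7) for gains and 64.9% (56.8 to 72.4) for losses, beside 39.6% gains and 60.4% losses among all P21 calls. With strand agreement at P0, 22 gains kept their direction at P21 and 32 had the opposite one, and for losses it was 19 and 9. Among the 41 bins called at both ages in the same direction with strand agreement at P0 were the following, named after their values were seen, whose shared direction was the ground for choosing them. A bin at chr8:48828401-48828600, 29116 bp from Cdkn2aip, had 55.6% in P0 ISCs and 9.62% in P0 differentiated cells, and 62.5% and 12.5% at P21. It rested on few calls, 36 and 52 at P0 and 56 and 40 at P21. A bin in a CpG island at chr5:136108201-136108400, 88 bp from Rhbdd2, had 32.7% and 4.12% at P0 and 32.8% and 6.25% at P21. An island bin at chr11:11925801-11926000 in the first intron of Grb10, an imprinted gene that encodes a growth factor receptor adaptor, had 66.6% and 45.0% at P0 and 71.3% and 45.8% at P21. In the opposite direction, a bin at chr8:118996601-118996800, 32115 bp from Dynlrb2, had 20.8% and 55.1% at P0 and 12.5% and 44.4% at P21.

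Nearly all called bins stood alone. With 11846 gains and 9108 losses on their own, adjacent bins called in the same direction formed 132 gains and 93 losses of 2 bins, 9 and 3 of 3 bins, and 1 gain of 4 bins. The single run of 4 bins lay at chr2:157386001-157386800 in the shared first introns of Nnat and Blcap, 155 bp from the start of Nnat. Nnat encodes neuronatin, an imprinted gene expressed from the paternal allele. Its level was 53.1% (95% Wilson interval 49.7 to 56.6) in ISCs on 802 calls and 68.0% (65.2 to 70.7) in differentiated cells on 1103 calls. At P21 it was 66.0% in ISCs and 54.4% in differentiated cells, so the order of the cell types was the opposite. With each CpG as a stratum, the Mantel-Haenszel difference was 18.3 points (SE 2.36) at P0 and -10.7 (SE 2.51) at P21. Outside the run, nearby bins differed in both directions at P0, with examples picked after their values were seen. A bin went from 84.2% to 44.6% on 133 and 83 calls, with 78.4% and 57.5% at P21. The bin next to it went from 52.2% to 78.9% on 136 and 142 calls, with 82.3% and 87.8% at P21.

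In intron 2 of Osbpl10, which encodes an oxysterol-binding protein, 3 adjacent bins at chr9:115059601-115060200 formed a gain that was present at both ages. The level was 48.7% (45.7 to 51.8) in P0 ISCs and 75.5% (72.2 to 78.5) in P0 differentiated cells, and 49.4% (46.5 to 52.2) and 68.5% (65.3 to 71.6) at P21. The intervals of the ISC libraries overlapped, and each differentiated library was above them. The Mantel-Haenszel difference was 24.1 points (SE 2.11) at P0 and 17.8 (SE 1.98) at P21. The run held 1020 ISC calls and 701 differentiated calls over 10 CpGs at P0, many for its length and more in the ISC library, which had fewer calls in the median bin. The part of this depth in the difference was not tested, and in the third bin the strands did not agree. At the first CpG of the sequence shown above, at position 40 counted from its first base, the levels were 30.2% and 84.6% at P0 and 39.5% and 81.8% at P21, on 43, 26, 43 and 22 calls. At the next CpG, at position 47, they were 21.7%, 72.2%, 34.7% and 75.8%. Both CpGs thus kept the same order.

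The other 3 gaining runs named by the rule had little or no difference at P21. The run at chr11:111825201-111825800, 466704 bp from the nearest protein-coding gene, had 27.4% in P0 ISCs and 61.0% in P0 differentiated cells, and 73.0% and 75.3% at P21. A run in intron 8 of Prrc2b at chr2:32051801-32052400 had 23.8% and 53.9% at P0, and 7.78% and 7.45% at P21. A run in intron 1 of Hunk, which encodes a protein kinase, at chr16:90390801-90391400 had 32.4% and 62.6% at P0, and 9.86% and 15.4% at P21. Its P21 difference was 5.59 points with summed calls and 0.002 (SE 1.19) with each CpG as a stratum, so it depended on the weighting. In all 3 the P21 libraries lay within 5.59 points of each other, above both P0 levels in the first run and below both in the others.

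The losing run of 3 bins with the largest difference lay in intron 1 of Peg10, an imprinted gene of retrotransposon origin expressed from the paternal allele and needed in the placenta. Over chr6:4699001-4699600 the level was 72.9% (68.0 to 77.2) in P0 ISCs and 38.6% (34.9 to 42.5) in P0 differentiated cells, and 58.0% (52.6 to 63.2) and 45.0% (41.1 to 48.8) at P21. The direction was the same at both ages, and the Mantel-Haenszel difference was smaller at P21, at -12.7 points (SE 3.42) against -32.2 (SE 3.05). In the bin shown above the P0 levels were 87.1% and 48.0%, and the P21 levels 48.0% and 55.0%, so the repeat came from the other bins of the run.

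The other 4 losing runs named by the rule were not seen at P21. In intron 1 of Bcl11b, a transcription factor of T lymphocytes and neurons, the level over chr12:109238001-109238600 was 62.0% and 33.6% at P0 and 31.1% and 29.8% at P21. With each CpG as a stratum the P0 difference was -18.8 points in place of -28.4, and the P21 difference 11.1 points (SE 2.57), so its sign depended on the weighting. Intron 3 of Neurl1a, a ubiquitin ligase gene, had 69.1% and 44.8% at P0 and 67.5% and 74.8% at P21 over chr19:47318001-47318600. The runs of 2 bins, 1874 bp from Arid1b and in intron 1 of Gramd3, rested on fewer calls, with 88 and 77 in ISCs. The first went from 92.0% to 46.2% at P0 and from 59.0% to 68.3% at P21, and the second from 80.5% to 35.4% and from 14.5% to 31.7%. The direction at P21 was the opposite of that at P0 in both and in Neurl1a.

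**Figure D3:**
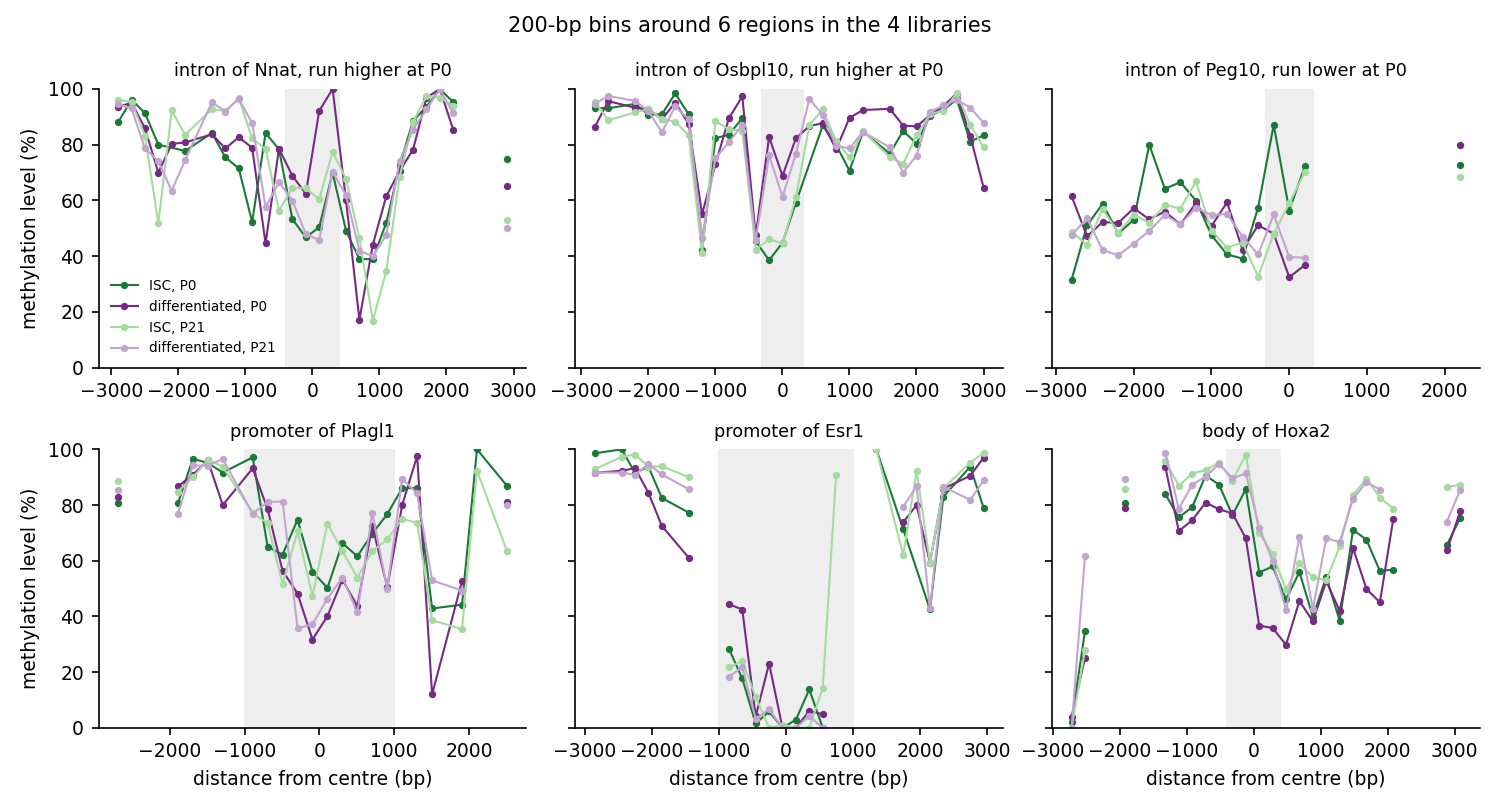
Methylation level (y axis, %) of 200-bp bins with 2 or more CpGs and 10 or more calls against the distance from the centre of each region (x axis, bp), with 1 line per library and the region shaded. In the 3 shaded bins of the Osbpl10 intron the differentiated libraries of both ages lie above the ISCs, and in the 5 bins of the Plagl1 promoter from -293 to 507 bp they lie below them, but not across the whole promoter, while in a stretch of Esr1 and of Hoxa2 the differentiated P0 library stands apart from the other libraries.

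Gene parts were tested with each CpG as its own stratum (Cochran-Mantel-Haenszel test, CMH), so that a difference in which CpGs were covered could not enter. A part was called at an adjusted p below 0.05 and more than 10 points. The median promoter had 12.1% in ISCs and 12.1% in differentiated cells, the median body 80.7% and 80.5%, and the median last exon 86.2% and 86.1%. The difference lay within 5 points in 91.4% of promoters, 96.1% of bodies and 79.8% of last exons. Promoters under 20% in ISCs numbered 12012, and 95.5% of them differed by 2 points or less. Called were 73 promoters (0.349%), 42 as gains (0.201%) and 31 as losses (0.148%). For bodies it was 33 (0.187%), 17 as gains (0.0964%) and 16 as losses (0.0908%), and for last exons 157 (0.946%), 90 as gains (0.542%) and 67 as losses (0.404%). Both strands agreed for 25 promoters (0.119%, 20 gains), 9 bodies (0.0511%, 6 gains) and 60 last exons (0.361%, 34 gains). An adjusted p below 0.05 at any size was reached by 746 promoters (3.56%), 1282 bodies (7.27%) and 483 last exons (2.91%), with a median size of 3.42, 1.94 and 7.87 points. When calls were simply summed over a part, 1001 promoters, 317 bodies and 467 last exons were called, and gains made up 21.5%, 18.9% and 42.2% of them against 57.5%, 51.5% and 57.3% with CpGs as strata. Of the parts called with strand agreement, 8 of 20 promoter gains were higher at P21 and 4 of 5 promoter losses lower, beside 44.8% higher and 55.2% lower over all promoters. For bodies it was 4 of 6 gains and 2 of 3 losses, beside 30.3% and 69.7%, and for last exons 14 of 34 and 16 of 26, beside 44.3% and 55.5%.

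**Figure D4:**
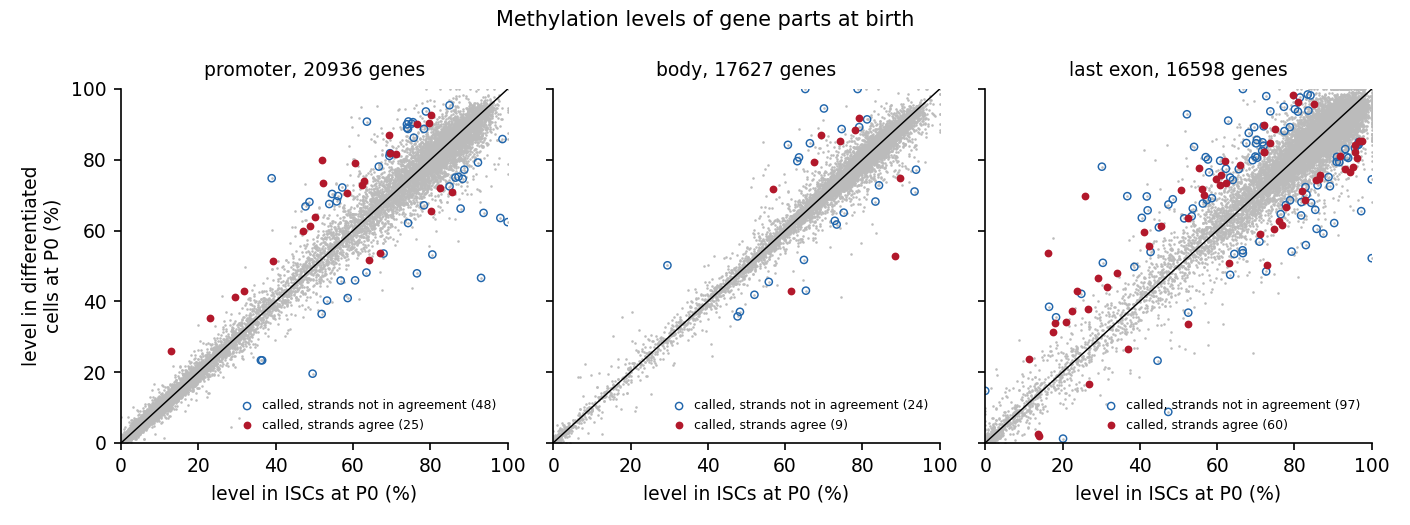
Methylation level of promoters, bodies and last exons in ISCs (x axis, %) and differentiated cells (y axis, %) at P0, weighted over shared CpGs, with 1 point per gene; filled red points are called with strand agreement, open blue circles called without it. The 25, 9 and 60 red points lie off the line of equal levels, and no called promoter lies among those near 0% in both libraries.

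Of the 8 named promoters, 6 rested on few calls. Vmn2r15 and Vmn1r203, which encode vomeronasal receptors, had 51.95% and 52.1% in P0 ISCs and 79.9% and 73.3% in P0 differentiated cells. At P21 Vmn2r15 had 68.2% and 58.0% and Vmn1r203 64.8% and 73.7%. The olfactory receptor gene Olfr351 went from 69.4% to 87.1% at P0 and from 80.1% to 85.3% at P21, and Gm8369 from 60.5% to 79.2% and from 65.9% to 72.3%. Among the losses, Olfr376 fell from 85.7% to 70.97% at P0, with 87.3% and 82.0% at P21, and Vmn1r159 from 80.2% to 65.6%, with 67.4% and 66.0%. These 6 promoters had between 43 and 352 calls per P0 library, and since vomeronasal and olfactory receptor families hold near-identical copies the assignment of reads to their 5 members here is uncertain.

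The other losses had more calls. The promoter of St3gal1, a sialyltransferase gene, went from 66.95% to 53.6%, a difference of -13.3 points (SE 2.22, CMH chi-square adjusted p = 2.12e-06) on 568 and 1027 calls, and had 50.6% and 52.4% at P21. Its P0 difference was -18.1 points on the plus strand alone and -6.67 on the minus strand alone. The promoter of Plagl1, at chr10:12809594-12811594, fell from 64.0% to 51.8%, a difference of -12.2 points (SE 1.55, CMH chi-square adjusted p = 5.21e-12) on 1584 and 3517 calls. With calls summed over its CpGs it was -19.5 points, and on the minus strand alone -6.99. Plagl1 encodes a zinc finger protein and is imprinted, with a maternally methylated promoter. At P21 its levels were 63.2% and 51.6%, a difference of -11.6 points (SE 1.44). The 2 libraries of each cell type stood within 1 point of each other, and the ISC level was the higher at both ages. In the bin shown above the levels were 74.7% and 48.2% at P0 and 70.5% and 35.8% at P21. That bin rested on 87 ISC calls and 224 differentiated calls at P0, and it did not meet the rule of strand agreement.

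A further 4 of the 20 promoter gains with strand agreement stand outside the naming rule and were picked after their values were seen. The promoter of Esr1, the oestrogen receptor alpha gene, rose from 12.8% to 26.1%, a difference of 13.3 points (SE 1.59, CMH chi-square adjusted p = 1.89e-13) on 988 and 1107 calls. At P21 it had 14.03% and 11.2%, so the differentiated P0 library stood above the other 3. In the Esr1 bin shown above, 459 calls in the differentiated P0 library gave 42.5%, against 17.7% in P0 ISCs, 23.97% in P21 ISCs and 21.9% in P21 differentiated cells. Hoxd3, a homeobox gene, rose from 31.8% to 42.9% at P0 and had 70.7% and 69.4% at P21. Mab21l1, a developmental gene of the eye, rose from 23.0% to 35.2%, with 60.7% and 48.8% at P21. The promoter of Fgf7, a growth factor made by mesenchymal cells for epithelium, rose from 50.2% to 63.7%, with 64.6% and 68.0% at P21. Hoxd3, Mab21l1 and Fgf7 had higher levels in both P21 libraries than in ISCs at birth, but a low level in P0 ISCs was part of their choice. Over all gaining bins the P21 means of 64.4% and 64.5% were above the 49.0% of P0 ISCs and below the 76.3% of P0 differentiated cells. Those bins too were chosen by their P0 levels.

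Among the named gene bodies the loss with the most calls was that of Hoxa2, a homeobox gene of the anterior cluster, at chr6:52113625-52114411. Its level was 61.4% in P0 ISCs and 43.0% in P0 differentiated cells, a difference of -18.4 points (SE 2.57, CMH chi-square adjusted p = 1.71e-09) on 413 and 934 calls, and 68.3% and 67.2% at P21. The body of Uqcr10, a subunit of mitochondrial complex III, rose from 56.8% to 71.8% at P0, by 14.96 points or by 9.75 with summed calls, with 30.01% and 29.97% at P21. Olfr1507 rose from 69.3% to 86.9%, with 71.6% and 70.4% at P21, and Gm5861 from 79.2% to 91.8%, with 77.8% and 85.4%. Ifi27l2b, of an interferon-inducible family, rose from 67.6% to 79.5%, with 75.1% and 76.7% at P21. The other losses were the body of Gm6309, from 89.7% to 74.9% with 85.2% and 79.8% at P21, and that of 2700046A07Rik, from 88.5% to 52.8% on only 40 and 48 calls, with 80.6% and 88.0% at P21.

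Among the named gene parts the largest differences were those of Ascc2 and Ppap2a, both in short last exons. The last exon of Ascc2, a subunit of a transcription coactivator complex, holds 3 CpGs and had 25.7% in P0 ISCs and 69.8% in P0 differentiated cells, a difference of 44.1 points (SE 8.78, CMH chi-square adjusted p = 0.00134) on 46 and 61 calls. At P21 it had 18.6% and 2.09%, the opposite order. Ppap2a, a lipid phosphatase gene whose last exon overlaps Skiv2l2, rose from 16.3% to 53.6% at P0, with 6.85% and 16.6% at P21. Camk2b, a calmodulin-dependent kinase subunit, rose from 55.3% to 77.7%, with 79.6% and 88.8% at P21. Erp27, a protein of the endoplasmic reticulum, rose from 50.6% to 71.5%, with 71.2% and 73.2% at P21. Of the losses, the embryonic globin gene Hba-x fell from 72.9% to 50.3%, with 62.1% and 62.9% at P21. Pglyrp2, an enzyme that cuts bacterial peptidoglycan, fell from 94.2% to 76.4%, with 77.5% and 82.6% at P21. Fam96b fell from 52.4% to 33.5% and Atp6v1c2, a proton pump subunit gene overlapping Pdia6, from 95.2% to 77.8%, and these had lower levels in differentiated cells at P21 too, at 41.6% and 35.2% and at 87.6% and 78.5%. Apart from Ascc2 these exons had between 77 and 298 calls per P0 library.

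**Figure D5:**
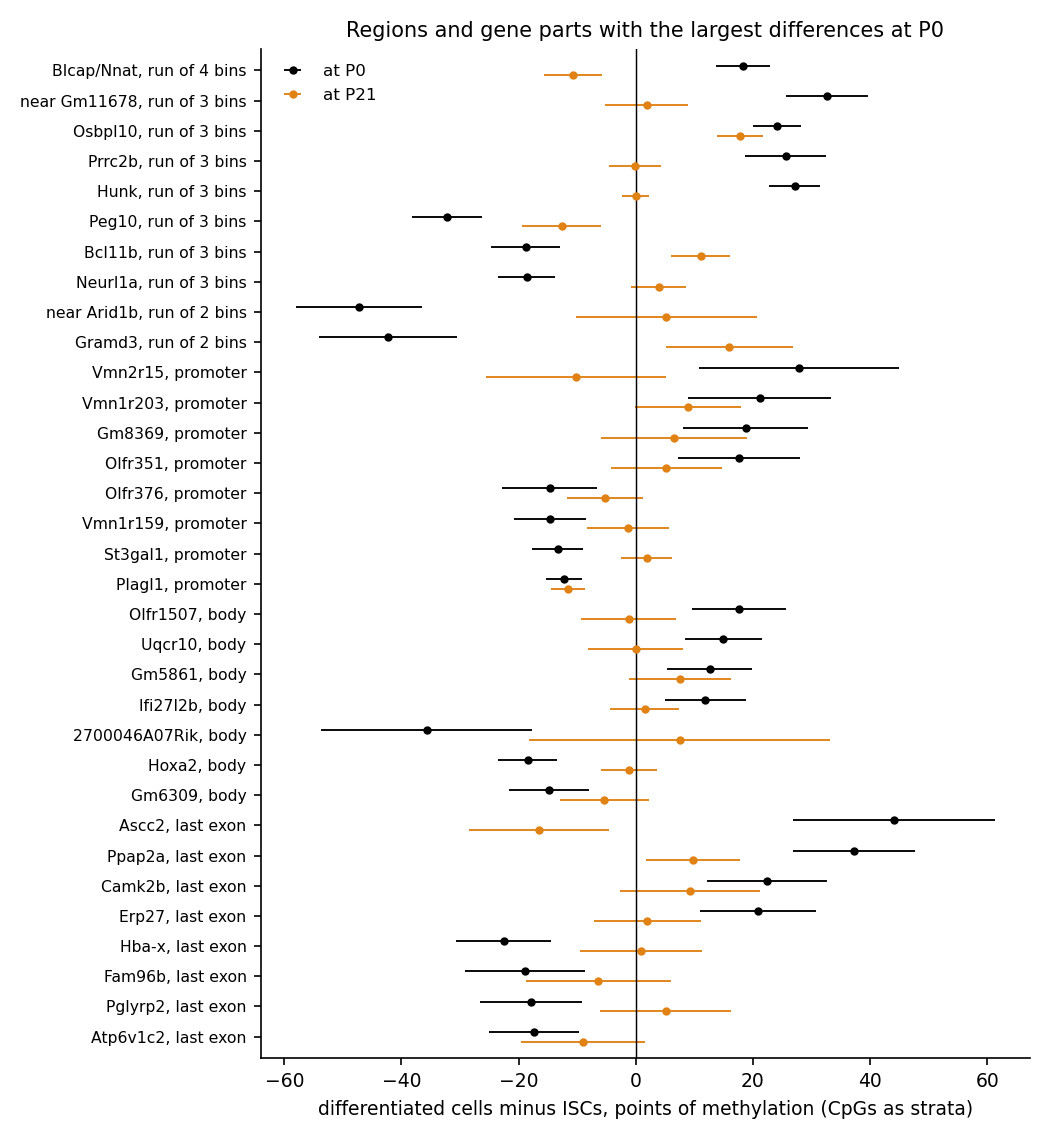
Mantel-Haenszel difference between differentiated cells and ISCs (x axis, points, differentiated minus ISC) at P0 in black and at P21 in orange, for 10 runs chosen for the most bins and 23 gene parts chosen for the largest P0 differences, all with strand agreement; bars are 95% intervals from counting error. The P0 points lie away from 0 because they were chosen for it. Of the P21 points 14 have the other sign, most of them with bars that cross 0. The Plagl1 promoter has nearly the same value at both ages, -12.2 and -11.6.

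At P0 the promoters of the genes used for the sort did not pass the test. The promoter of Lgr5, the Wnt-responsive receptor whose locus drives the reporter, had 2.58% in P0 ISCs and 2.82% in P0 differentiated cells (0.243 points, SE 0.485), and 1.34% and 6.19% at P21 (4.86 points, SE 0.647). Its body, at chr10:114890158-115023835, had 73.1% and 74.8% at P0, a difference of 1.67 points (SE 0.261, CMH chi-square adjusted p = 6.09e-08) on 30525 and 42459 calls, and 73.3% and 74.4% at P21, so the body was slightly more methylated in differentiated cells at both ages. The promoter of Epcam, the epithelial adhesion molecule of the gate, had 4.05% and 4.18% at P0. Its body had 62.1% and 57.8% at P0, a difference of -4.32 points (SE 0.661, CMH chi-square adjusted p = 6.94e-08) for which the strands did not agree, at -5.66 on the plus and -2.16 on the minus strand. At P21 it had 41.0% and 41.6%. Bins within 5 Mb of Lgr5 were called at a rate of 0.741% (0.632 to 0.864), with 1-Mb windows between 0.374% and 0.991%, beside a median of 0.567% and 5th and 95th percentiles of 0.196% and 0.944% over 2348 windows.

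Marker promoters had their lowest median levels in the epithelial and stem cell lists and their highest in the immune list, with the lists of epithelial lineages and of other cell types between them. The median promoter had 1.15% in ISCs and 1.35% in differentiated cells for 28 epithelial genes and 1.41% and 1.58% for 25 stem cell genes, but 77.8% and 78.7% for 20 immune genes. Mesenchymal promoters had medians of 15.8% and 14.8%, endothelial promoters 23.2% and 23.5% and neural promoters 6.59% and 7.67%. Absorptive promoters had medians of 29.0% and 26.8%, goblet promoters 38.9% and 40.7%, enteroendocrine promoters 12.02% and 13.1% and tuft promoters 14.5% and 14.3%. Methylation at a promoter does not measure how many cells of a type are present, and the share of other cells in each gate was not tested.

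No stem cell gene part was called, beside 0.349% of promoters, 0.187% of bodies and 0.946% of last exons called over all genes. Of 25 promoters 1 was higher at adjusted p below 0.05, 1 was lower and 23 did not pass, and of 24 bodies 4 were higher, 1 was lower and 19 did not pass. Over all genes 3.56% of promoters and 7.27% of bodies passed. Here and for the lists below, only genes whose strands agreed are named, after their values were seen. The body of Lrig1, a negative regulator of ErbB signalling that marks stem cells, had 65.7% in ISCs and 69.0% in differentiated cells, a difference of 3.27 points (SE 0.296, CMH chi-square adjusted p = 7.65e-26) on 24286 and 41785 calls. At P21 its levels were 43.6% and 44.1%. The body of Smoc2, which encodes a secreted matrix protein, fell from 77.7% to 76.5%, with 76.9% and 76.4% at P21. With the Lgr5 body these were the only stem cell gene parts that passed with strand agreement. The median difference was 0.192 points over stem cell promoters, 0.420 over bodies and -0.409 over last exons, beside 0.002, -0.153 and -0.182 over all genes.

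The absorptive genes gave the only list gene called with strand agreement. The last exon of Cdhr5, a protocadherin of the brush border, rose from 52.5% to 63.5%, a difference of 10.98 points (SE 2.83, CMH chi-square adjusted p = 0.00737), and had 75.9% and 66.7% at P21, the opposite order. Of 35 absorptive promoters none was higher, 2 were lower and 33 did not pass, and of 35 bodies 1 was higher, 3 were lower and 31 did not pass, in none of them with strand agreement, beside 3.56% and 7.27% that passed over all genes. With or without strand agreement, 2 of 34 absorptive and 1 of 20 immune last exons were called, beside 0.946% over all genes. The same held for 1 of 35 absorptive bodies, beside 0.187%, and 1 of 28 epithelial promoters, beside 0.349%.

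Of 22 goblet promoters 2 were higher and 20 did not pass, and of 21 goblet bodies 1 was lower and 20 did not pass, beside 3.56% of promoters and 7.27% of bodies that passed over all genes. The strands agreed only for the body of Spdef, the transcription factor of goblet cell maturation, which fell from 52.2% to 49.2%, with 55.0% and 55.3% at P21. Of the enteroendocrine genes, 1 of 21 promoters and 1 of 16 bodies were lower, near those shares and both without strand agreement.

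Of 26 epithelial bodies 1 was higher, 5 were lower and 20 did not pass, beside 7.27% of all bodies that passed. Of 28 epithelial promoters 1 was higher and 1 lower, beside 3.56% of all, and of 25 last exons 1 was lower, beside 2.91%. The strands agreed for Isx, an intestine-specific homeobox gene, which fell from 77.2% to 73.2%, and for Ovol1, a zinc finger gene of epithelia, which fell from 65.1% to 60.8%. Their P21 differences were 3.32 and 1.30 points, both higher in differentiated cells. Of the lists of other cell types, no immune promoter or body passed. Of 20 mesenchymal promoters 1 passed and of 20 bodies 2, and of 13 endothelial promoters none passed and of 11 bodies 1, beside the same shares over all genes. Those with strand agreement were as follows. The Pdgfrb promoter, of a receptor on mesenchymal cells, rose from 44.4% to 52.8% on both strands, with 65.0% and 53.6% at P21. The body of Tagln, a smooth muscle gene, fell from 85.8% to 78.0%, with 71.7% and 73.6% at P21. The body of Eng, an endothelial receptor, fell from 74.7% to 72.7%, with 76.9% and 77.7% at P21.

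Short motifs of intestinal transcription factors were counted in the bins on either strand. The letters searched were CAAAGTCCA for HNF4, ATCAAAG for TCF/LEF, TTTATNG for CDX, AGATAAG for GATA and TGANTCA for AP-1, where N is any base. The HNF4 letters were in 0.258% of tested bins, 0.321% (0.229 to 0.439) of gains and 0.527% (0.390 to 0.696) of losses. With strand agreement they were in 0.393% (0.144 to 0.853) of losses, an interval that holds the share of all bins. For CDX the shares were 9.08% of tested bins, 12.7% (12.1 to 13.3) of gains and 10.2% (9.62 to 10.9) of losses. With strand agreement they were 11.8% (10.6 to 13.2) and 7.53% (6.25 to 8.96), above the share of all bins for gains and below it for losses. For GATA they were 2.40%, 2.58% and 3.42%, and 2.46% and 2.81% (2.04 to 3.77) with strand agreement. For AP-1 they were 5.82%, 6.15% and 7.18%, and 6.77% and 8.05% (6.73 to 9.53). For TCF/LEF they were 3.22%, 3.43% and 3.59%, and 3.87% and 2.88% (2.10 to 3.85). Called bins were deeper and more often intermediate in level than tested bins, and the part of that in these shares was not tested.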

How the data were processed

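The authors sorted colonic cells, prepared whole-genome bisulfite libraries and mapped 100-bp paired-end reads to mm9 with Bismark and Bowtie, per the labels and methods; the sources used here give neither versions nor whether duplicates were removed. The authors deposited, for each cytosine of a CpG, the count of reads and the count of methylated reads, and a fraction of these that was not used here because it was recomputed. Strands were summed at mm9 CpGs, and 0.478% and 0.850% of positions off a reference CpG in the P0 libraries were left out. Genes came from GENCODE M1, with the transcript of longest coding sequence per gene. Promoters were 1000 bp on both sides of the start, bodies ran from there to the last exon, and islands were 500-bp windows with 25 or more CpGs.

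Bins were compared with Fisher's exact test and gene parts with the Cochran-Mantel-Haenszel (CMH) chi-square test over CpGs (adjusted by Benjamini and Hochberg, two-sided; numpy 2.4.6, scipy 1.17.1), after both were tested on simulated data. Named were the 4 gains and 4 losses of largest size per kind of part and the runs with the most bins, 5 in each direction, all with strand agreement (10 or more calls per strand, same direction, unadjusted p below 0.05 on each), list genes called with strand agreement, Lgr5 and Epcam. Other genes were named after their values were seen, as stated beside them. Regions and lists were chosen with earlier results of these data known. Lypd8, Slc51a, Slc51b, Gfi1 and Spi1 did not match by name, and some list genes are not reported here. Calls from a read that spans several CpGs are not independent, so intervals and p-values cover counting error between 2 pooled libraries and not the spread between animals. Chromosome X was left out. Alternatives covered depth, CpG number, size of difference, test, strand, bin position and depth outliers.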

Additional observations from a re-analysis of the deposited data

Results flagged for a closer look

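Among the 33 regions and gene parts named for their P0 difference, 14 had a P21 difference of the other sign together with a difference between the ages that passed a normal test on the Mantel-Haenszel estimates (adjusted p below 0.05 over 33). The P0 values were the ground for choosing these items, so the test is not independent of the choice, and it covers counting error between single pooled libraries. The P0 difference minus the P21 difference was 29.0 points for the run at Nnat and 25.7 for that in Prrc2b. For losing runs it was -29.9 points in Bcl11b, -22.5 in Neurl1a, -52.4 near Arid1b and -58.2 in Gramd3. Among promoters it was 38.2 points for Vmn2r15 and -15.2 for St3gal1. Among bodies it was 18.8 points for Olfr1507, 14.99 for Uqcr10 and -43.2 for 2700046A07Rik, where the differentiated P21 library had only 8 calls. Among last exons it was 60.6 points for Ascc2, -23.4 for Hba-x and -22.9 for Pglyrp2. In Bcl11b the summed calls gave -1.29 points at P21 and the stratified estimate 11.1, so its sign at P21 rests on the weighting. Of all 33 items, 10 had a P21 difference of the same sign that did not differ from the P0 difference by this test, the Plagl1 promoter among them at -0.678 points between the ages. Only for Plagl1 did the interval of the P21 difference from counting error keep to a single sign, from -14.4 to -8.74 points (SE 1.44). For the rest of the 10 that interval held values of both signs, with an SE between 3.31 points (Olfr376) and 6.36 (Gm8369). Their lack of a difference between the ages is therefore not a repeat of the P0 difference.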

How the results depend on the processing

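No paired analysis was possible because each group has 1 library, and for the same reason no replicate could be left out. The 21444 called bins became 7142 above 30 points, 313150 with no test, 4008 with strand agreement, 7246 when calls were thinned to the lower library and 239 when calls were divided by 2 (the last added after seeing the data). The 7 other settings gave between 14466 and 25209. For promoters the 73 calls became 1001 with summed calls, 25 above 15 points, 278 above 5, 125 within 500 bp of the start, 25 with strand agreement and 746 at any size. For bodies the 33 became 317, 15, 144, 9 and 1282 for summed calls, 15 points, 5 points, strand agreement and any size, and for last exons the 157 became 467, 71, 371, 60 and 483. Gains were 20 of the 25 promoters and 6 of the 9 bodies called with strand agreement.

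The mean difference was -2.78 points with every call weighted equally. It was +0.037 and +0.022 on the plus and minus strands alone, over bins with 10 calls on that strand. In bins with 10 calls on both strands it was -0.031, and these last 3 values were added after seeing the data. Of the gains, the share higher at P21 was 48.7% with strand agreement, 51.2% above 30 points, 48.0% and 48.7% when called on the plus and minus strand alone and 45.5% when called at both ages. Of the losses, the share lower at P21 was 56.1% above 30 points, 53.2% when called on the minus strand alone and 64.9% when called at both ages. The runs and the gene parts named for their number of bins or size kept their direction with p below 0.05 on each strand, which the rule requires, and with the other way of combining calls, which moved 3 sizes by over 1.5 times: the Plagl1 promoter from -12.2 to -19.5 points, the Uqcr10 body from 14.96 to 9.75 and the Bcl11b run from -28.4 to -18.8. On a single strand some sizes moved by as much, the Plagl1 promoter among them at -6.99 on the minus strand. The cause of these moves was not tested. A bin of median depth rests on 61 and 92 calls.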

Other observations

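Because Nnat, Peg10, Plagl1 and Grb10 appeared among the named or repeated regions, the promoters of 15 genes known to be imprinted were read out after these values had been seen, as a description with no test. At an imprinted promoter the methylated allele of 1 parent gives a level near the middle of the scale. In both P0 libraries 12 of the 15 had levels between 46% and 73%, limits set by the values of these same genes. Sgce and Peg10, whose promoters overlap, count separately. The others were Usp29 with 91.0% in ISCs and 87.0% in differentiated cells, Peg12 with 22.4% and 18.6%, and Grb10 with 1.91% and 2.33%. Mest, an enzyme gene of the mesoderm, had 46.4% in P0 ISCs and 55.5% in P0 differentiated cells and 53.4% and 50.6% at P21. Mcts2 had 67.6% and 60.7% at P0 and 56.5% and 59.3% at P21. Sgce, which shares its promoter with Peg10, had 62.9% and 55.4% at P0 and 57.5% and 51.6% at P21, but its strands went opposite ways at P0, by 2.40 points on the plus and -12.7 on the minus strand. The strands agreed at P0 for Mest, Mcts2, Nnat and Plagl1 and for none of the others. Opposite strands were also seen at the Peg10 promoter, by 2.84 points on the plus and -10.98 on the minus strand. At Nap1l5 they were -19.8 and 4.34 points. The P0 differences over the 15 ran from -12.2 points at Plagl1 to 10.3 points at Nnat.

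Bins with the HNF4 letters had a mean level of 68.8% in P0 ISCs and 68.0% in P0 differentiated cells, a mean difference of -0.781 points over 9356 bins, beside -0.115 over all bins. On the plus strand alone the mean was -0.450 points and on the minus strand alone -0.673, beside 0.037 and 0.022 over all bins. At P21 the mean was -0.202 points, beside -0.539 over all bins. Other letters departed from all bins too: over the 329810 bins with the CDX letters the mean was 0.259 points at P0, 0.431 and 0.408 on the plus and minus strand, and -0.603 at P21. Of the 49 P0 losses with the HNF4 letters and enough calls at P21, 24 were lower and 25 were higher in differentiated cells at P21, with mean levels of 42.8% and 41.6%. This readout was added after seeing the data and carries no test.

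Other homeobox genes among the last exons called with strand agreement were Hoxa5, from 11.4% in ISCs to 23.6% in differentiated cells at P0 with 32.2% and 26.3% at P21, and Hoxd9, from 26.8% to 16.7% with 26.4% and 23.3% at P21. They were picked after their values were seen.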
